A study of Rattus norvegicus and Mus musculus and Macaca mulatta with 84 samples.

Results

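The 10 genes described here belong to the circadian clock in liver or its output: Arntl, Clock, Npas2, Per1, Per2, Per3, Cry1, Nr1d1, Nr1d2 and Dbp. They were taken by gene symbol from the liver RNA-seq tables of 2 experiments, and each had exactly 1 row among the 48440 genes of the mouse table and 1 among the 32754 genes of the rat table. All 10 lay above the filter on low values (a mean of at least 10 normalised counts), which left 14596 mouse and 13640 rat genes for testing. The files identify Arntl as ENSRNOG00000014448 in rat and ENSMUSG00000055116 in mouse, and Dbp as ENSRNOG00000021027 and ENSMUSG00000059824.

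The study asked how the microRNA miR-29 bears on liver lipid metabolism in diabetes. Of its 84 samples, the 31 with polyA+ RNA-seq of liver were used; the other 53 hold small RNA, which carries no clock messenger RNA. The first experiment used UCD-T2DM rats, a strain from UC Davis that models type 2 diabetes, grouped by how long the diabetic phenotype had lasted: 5 prediabetic rats, 4 rats at 2 weeks, 5 at 3 months and 6 at 6 months. The second used C57BL/6J mice, 5 labelled as treated with LNA-29 and 6 labelled as their controls. A locked nucleic acid (LNA) is a chemically modified oligonucleotide, of the kind used to block a microRNA; the labels give neither dose nor duration for the mice, and do not say what the control mice received. The labels give no sex or age for either species, no clock time of tissue collection and no feeding state, so the part of these in any value below was not tested. Duration of diabetes and age cannot be told apart in the rats.

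In the circadian clock, the proteins of Arntl (also called Bmal1) and of its partner Clock, or the related Npas2, bind E-box sequences and switch on the genes of their own repressors, the Per and Cry families. They also switch on Nr1d1 and Nr1d2, the REV-ERB nuclear receptors, which repress Arntl and Npas2 through ROR elements. Dbp encodes a transcription factor that binds D-box sequences and carries the rhythm to many liver genes. In liver, messenger RNA of Arntl and Npas2 therefore peaks at the opposite time of day to that of Dbp, Nr1d1 and Per3, and a single tissue sample catches the cycle at one point.

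Rat promoter sequences from RefSeq (GRCr8 build) are shown for the 3 genes that hold matches to these motifs. The promoters of the other matched genes, Dbp, Per3, Nr1d2, Npas2, Per1 and Clock, held none of the motifs searched. Of these, Dbp, Per3 and Nr1d2 varied together with Nr1d1 in the rats, as given below. The part of promoter motifs in that variation was not tested. RefSeq entries were matched for 9 of the 10 genes, with 11 start sites in all; no entry was matched for Cry1. The 250 bases before the start of transcription follow in lower case for Arntl (chr1:176766078-176766327, plus strand), Per2 (chr9:99496994-99497243, minus strand) and the more downstream of the 2 listed starts of Nr1d1 (chr10:84229455-84229704, minus strand). Capitals mark a ROR element in Arntl, a D-box followed by an E-box variant in Per2, and an E-box in Nr1d1.
Arntl: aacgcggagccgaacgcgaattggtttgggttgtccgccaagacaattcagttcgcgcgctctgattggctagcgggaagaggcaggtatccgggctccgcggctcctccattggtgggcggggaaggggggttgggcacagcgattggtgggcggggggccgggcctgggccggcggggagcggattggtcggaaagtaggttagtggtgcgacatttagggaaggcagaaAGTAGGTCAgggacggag
Per2: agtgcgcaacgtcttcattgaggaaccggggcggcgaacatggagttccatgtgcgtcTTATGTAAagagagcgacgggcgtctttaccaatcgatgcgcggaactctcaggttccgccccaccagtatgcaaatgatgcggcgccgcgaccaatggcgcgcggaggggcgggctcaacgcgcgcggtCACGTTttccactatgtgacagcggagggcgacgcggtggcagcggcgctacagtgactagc
Nr1d1: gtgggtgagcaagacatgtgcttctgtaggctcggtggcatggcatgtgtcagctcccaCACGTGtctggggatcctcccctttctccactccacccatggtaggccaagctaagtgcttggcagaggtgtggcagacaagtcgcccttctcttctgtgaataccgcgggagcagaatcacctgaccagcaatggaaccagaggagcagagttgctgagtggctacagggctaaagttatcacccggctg

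The motifs were searched on both strands in each gene's 250 bases before and 50 after the start. The ROR element ANTAGGTCA, found in Arntl beginning 18 bases before the start, occurs in 0.657% of the 33469 promoters of the table. The D-box TTATGTAA, which begins 192 bases before the Per2 start, occurs in 0.893% of them, and the E-box CACGTG, 191 bases before the second Nr1d1 start, in 6.42%. The E-box variant CACGTT begins 62 bases before the Per2 start and, on the other strand, 174 bases before the first Nr1d1 start; it occurs in 4.83% of promoters and was added after the sequences were seen. The second ROR form ANTGGGTCA (0.804% of promoters) and the D-box TTACGTAA (0.12%) were found in none of the 11 windows. A match is only a match of letters and was not tested for binding. Sequence outside these windows was not searched, so a gene without a match may hold the motif elsewhere.

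The libraries were comparable in size, with summed normalised counts, in units of 1e+06, of 37.6 to 49.9 in the rats and 43.3 to 52.8 in the mice; the raw read depth is unknown, because only normalised counts were used. Hepatocyte markers (Alb, Ttr, Hnf4a and others) were abundant in every library and summed to 4056200 to 9104710 normalised counts in the rats and 4297750 to 7581150 in the mice, as the liver label requires. No 2 libraries held identical values. In bulk tissue, fewer cells of a type and less RNA per cell cannot be told apart.

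The activators of the loop varied widely among rats of the same group. Arntl was 735, 725, 357, 373 and 412 normalised counts in prediabetic rats 1 to 5, and 263, 349, 1219 and 270 in rats 1 to 4 at 2 weeks. At 3 months it was 1494, 1260, 543, 67.5 and 569, and at 6 months it ran from 52.0 to 1409 with a median of 554. One rat at 3 months (rat 4) and one at 6 months (rat 2) were thus far below all prediabetic rats, while other rats of the same 2 groups were above all of them, and every group overlapped every other.

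Npas2, which can stand in for Clock, was the other wide-ranging activator. It was 423, 276, 164, 16.4 and 61.6 normalised counts in the prediabetic rats and 154, 156, 384 and 40.1 at 2 weeks. It was 417, 266, 59.9, 53.7 and 246 at 3 months, and 12.1 to 424 with a median of 75.3 at 6 months. The ranges of the 4 groups overlapped one another. Clock itself was steadier, between 920 and 2506 normalised counts over all 20 rats. Its lowest values were in prediabetic rat 2 (1145), 3-month rat 4 (1119) and 6-month rats 2, 5 and 6 (920, 1176 and 1280), with the other 15 rats at 1620 or more.

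The output gene Dbp ran the opposite way. It was 1425, 1359, 3598, 2755 and 2443 normalised counts in prediabetic rats 1 to 5, and 3457, 3806, 426 and 3357 at 2 weeks. It was 119, 220, 1202, 7297 and 1474 at 3 months, and 436 to 10054 with a median of 1563 at 6 months. The 2 rats with the lowest Arntl had the 2 highest Dbp values, and the rat with the highest Arntl (3-month rat 1) had the lowest Dbp. Within the 3-month group Dbp spanned a factor of 61.1, which was 12.3 without rat 4 and 33.1 without rat 1.

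The REV-ERB repressor Nr1d1 was 3135, 3320, 3896, 2834 and 2563 normalised counts in the prediabetic rats, a range of only 1.52-fold. It was 3957, 4347, 947 and 4289 at 2 weeks, 121, 801, 2064, 4286 and 2928 at 3 months, and 872 to 4502 (median 1587) at 6 months. Each diabetic group thus held at least 1 rat well below the prediabetic range and at least 1 above it. Nr1d2, its relative, lay between 1740 and 2992 in prediabetic rats and between 834 and 3506 in the 15 diabetic rats.

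Per2, a repressor of the Arntl and Clock pair, was 992, 471, 1303, 1547 and 1424 normalised counts in prediabetic rats and 1265, 1666, 660 and 1349 at 2 weeks. At 3 months it was 294, 389, 636, 1521 and 355, and at 6 months 509 to 2794 with a median of 669. Of the 5 rats at 3 months, 3 were below every prediabetic rat and 1 was within the prediabetic range near its top. Per3, the third Per gene, ranged from 135 to 1550 normalised counts over the rats, Per1 from 418 to 1928, and the repressor Cry1 from 101 to 435.

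**Figure D1:**
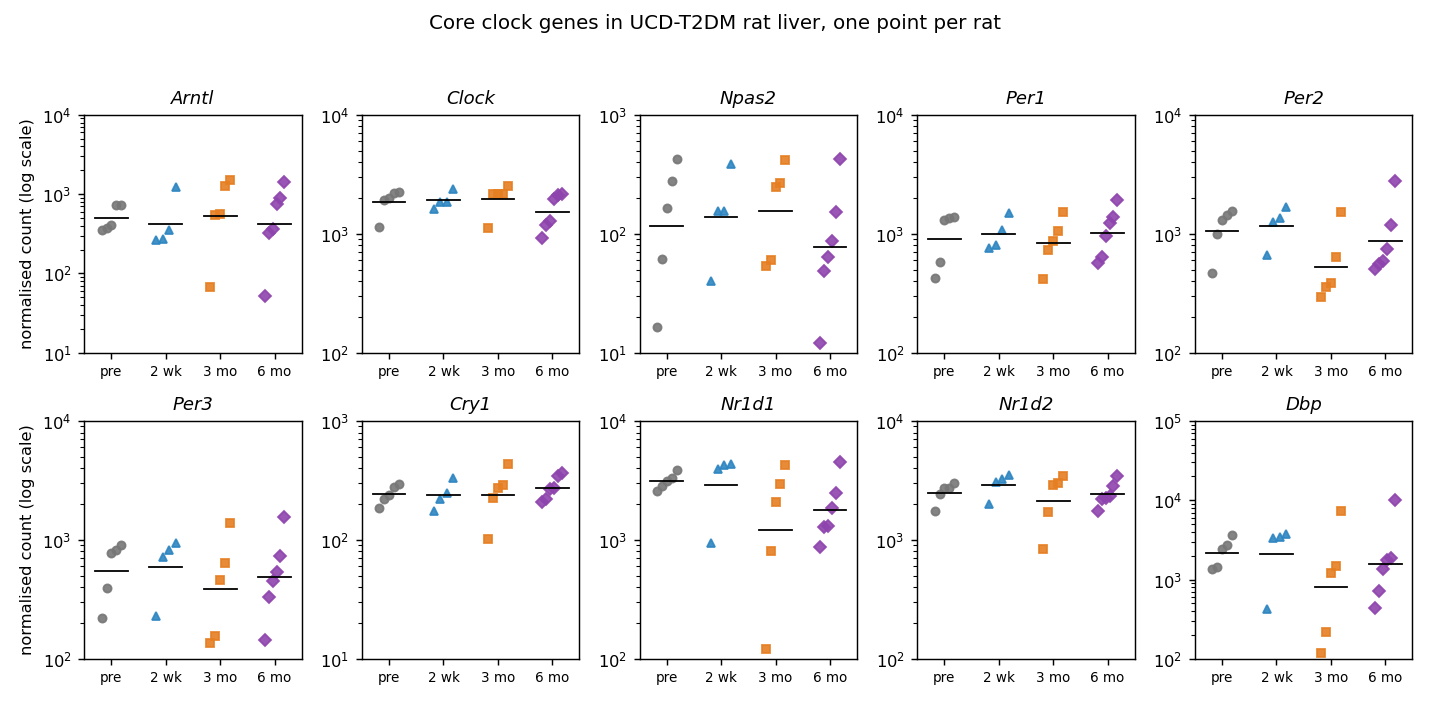
Normalised counts (log scale) of the 10 clock genes in rat liver by group (pre, prediabetic, n = 5; 2 wk, n = 4; 3 mo, n = 5; 6 mo, n = 6), 1 point per rat, points sorted by value within a group, black line at the mean on the log2(count + 1) scale. Groups overlap in all 10 panels, and the widest spreads are those of Arntl, Npas2, Nr1d1, Per3 and Dbp.

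None of the 10 clock genes differed between prediabetic and diabetic rats by the test used: limma on log2(normalised count + 1), with Benjamini-Hochberg adjustment over all genes tested and a call at an adjusted p under 0.05. At 2 weeks 0 of 10 were called, where 0% of all genes were, with 0 of 10 at an unadjusted p under 0.05 (7.9% of all genes). At 3 months 0 of 10 were called against 16.5% of all genes, with 1 of 10 at an unadjusted p under 0.05 against 31.8%. At 6 months 0 of 10 were called against 21.1% of all genes, with 0 of 10 at an unadjusted p under 0.05 against 34.5%. An exact permutation test over rats, 2-sided, gave a p under 0.05 for 0 of 10 genes at each of the 3 stages; with 126, 252 and 462 arrangements its smallest possible p was 0.00794, 0.00794 and 0.00216. Nor did any clock gene's diabetic range separate from the prediabetic range at any stage, as 3.73%, 12% and 9.8% of all genes did. A test of any difference among the 4 stages called 0 of 10, against 17.7% of all genes.

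The differences themselves had wide errors. At 3 months against prediabetic (log2 scale, ± SE), Dbp was at -1.42 ± 0.93, Nr1d1 at -1.37 ± 0.70 and Per2 at -1.02 ± 0.48, the last with an unadjusted limma p of 0.0453, an adjusted p of 0.149 and an exact permutation p of 0.0952. Without 3-month rat 4, the rat with the high Dbp, Per2 was at -1.40 with a limma adjusted p of 0.0397 and so would be called. The other members at 3 months were at -0.50 ± 0.64 for Per3, -0.22 ± 0.30 for Nr1d2, -0.10 ± 0.39 for Per1, -0.01 ± 0.28 for Cry1, 0.08 ± 0.25 for Clock, 0.09 ± 0.80 for Arntl and 0.43 ± 0.91 for Npas2. The 95% interval for Dbp ran from -3.37 to 0.53, so that neither a large decrease nor a modest increase lay outside it.

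At 6 months against prediabetic, Nr1d1 was at -0.82 ± 0.67 and Npas2 at -0.55 ± 0.87. Dbp was at -0.47 ± 0.89, Per2 at -0.30 ± 0.46, Clock at -0.28 ± 0.24, Arntl at -0.22 ± 0.76 and Per3 at -0.17 ± 0.62. Nr1d2 (-0.04 ± 0.28), Per1 (0.18 ± 0.38) and Cry1 (0.18 ± 0.27) lay closest to 0 or above it. At 2 weeks the 10 differences ran from -0.24 ± 0.85 for Arntl to 0.27 ± 0.96 for Npas2; Nr1d1, Dbp and Cry1 were also below 0 (-0.11 ± 0.75, -0.05 ± 0.99 and -0.03 ± 0.30), and Clock, Per3, Per2, Per1 and Nr1d2 above it (0.04 ± 0.27, 0.12 ± 0.68, 0.14 ± 0.51, 0.14 ± 0.42 and 0.23 ± 0.31). These comparisons share the prediabetic rats. The median over the 10 genes was 0.08 at 2 weeks, -0.16 at 3 months and -0.25 at 6 months, beside 0.02, 0.02 and 0.01 over all genes tested.

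Between the diabetic stages no clock gene was called either. For 3 months against 2 weeks 0 of 10 were called (2.35% of all genes), with 1 at an unadjusted p under 0.05 (18.4%), which was Per2. For 6 months against 2 weeks 0 of 10 were called (8.82%), with 0 at an unadjusted p under 0.05 (26.4%), and for 6 months against 3 months 0 of 10 (0.0147%), with 0 at an unadjusted p under 0.05 (7.76%). The exact permutation test gave a p under 0.05 for 0 of 10 in each of the 3 comparisons, and 0 of 10 had ranges that did not overlap (8.06%, 9.78% and 0.85% of all genes).

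In the mice, 8 of the 10 clock genes had lower means with LNA-29, and Arntl and Npas2 had higher ones. However, no clock gene passed the adjusted test and every gene's 2 groups overlapped. Per2 came closest. It was 727 to 1551 normalised counts in the 6 control mice (median 887) and 732, 535, 319, 585 and 508 in LNA-29 mice 1 to 5. Of the 5 LNA-29 mice, 4 were below every control and the fifth, at 732, was above the lowest control and below the other 5. The difference was -0.87 ± 0.23 on the log2 scale, with a limma adjusted p of 0.0662, an unadjusted p of 0.00222 and an exact permutation p of 0.00433.

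Nr1d1 was 2604 to 4960 normalised counts in control mice (median 3712) and 3194, 1891, 1877, 3345 and 2019 with LNA-29, so that 3 treated mice were below all controls and 2 were among them. Its difference was -0.64 ± 0.20 (limma adjusted p 0.103, exact permutation p 0.0346). Nr1d2 was 2043 to 3428 in controls (median 2448) and 1848, 1700, 1855, 2701 and 1749 with LNA-29, with 4 treated mice below all controls and the fifth among the higher ones. Its difference was -0.38 ± 0.14 (limma adjusted p 0.174, exact permutation p 0.0519).

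Per3 was 102 to 444 normalised counts in controls (median 210) and 96.0, 88.9, 60.1, 219 and 86.1 with LNA-29, again with 4 treated mice below the lowest control and mouse 4 among the controls; the difference was -0.95 ± 0.38 (limma adjusted p 0.198, exact permutation p 0.0671). Dbp was 156 to 1151 in controls (median 502) and 203, 73.5, 176, 623 and 165 with LNA-29. Of the treated mice only number 2 was below the control range, and the difference of -1.13 ± 0.58 had a limma adjusted p of 0.308. LNA-29 mouse 4 had the highest Dbp, Per3, Nr1d1 and Nr1d2 and the lowest Arntl and Npas2 of its group.

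Arntl was 643 to 1215 normalised counts in controls (median 842) and 1189, 1420, 1137, 687 and 1043 with LNA-29, a difference of 0.28 ± 0.20. Npas2 was 70.6 to 228 in controls (median 167) and 294, 344, 262, 113 and 171 with LNA-29, a difference of 0.53 ± 0.32. For both genes the treated mice lay on both sides of the control median, and the limma adjusted p was 0.479 and 0.396. The Npas2 values of 294, 344 and 262 were above every control, and those of 113 and 171 were among them. Of the treated Arntl values, only 1420 was above every control. Clock (-0.15 ± 0.09), Per1 (-0.15 ± 0.20) and Cry1 (-0.49 ± 0.27) were likewise not called. Cry1 was 452 to 823 in controls and 463, 904, 339, 259 and 349 with LNA-29; without LNA-29 mouse 2, the one at 904, its difference was -0.77 with a limma adjusted p of 0.0467.

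**Figure D2:**
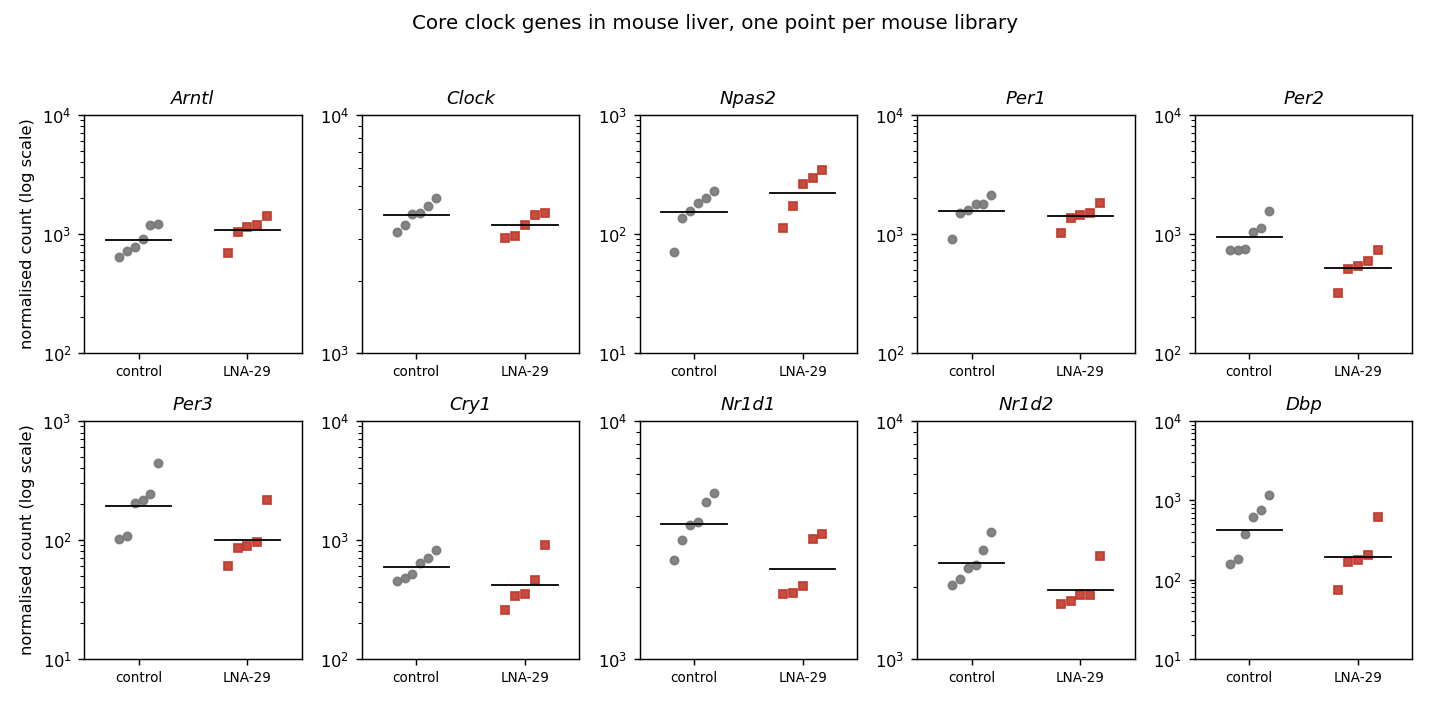
Normalised counts (log scale) of the 10 clock genes in mouse liver for control (n = 6) and LNA-29 (n = 5) libraries, 1 point per library, points sorted by value within a group, black line at the mean on the log2(count + 1) scale. In the panels of Per2, Per3 and Nr1d2, 4 of the 5 LNA-29 points lie below or at the lowest control points, and in no panel are the groups separate.

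For LNA-29 against control, 0 of 10 clock genes were called, where 2.43% of all genes were. At an unadjusted p under 0.05 there were 4 of 10 (Per2, Per3, Nr1d1 and Nr1d2, all lower), against 19.2% of all genes, 9.69% of them lower. The exact permutation test, with 462 arrangements and a smallest possible p of 0.00216, gave a p under 0.05 for 2 of 10, Per2 and Nr1d1. Of the 14596 genes, 3.95% had groups that did not overlap, and 0 of the 10 did. The median difference over the 10 was -0.43, beside 0.00 over all genes. Several of the 10 vary together from mouse to mouse, as given below, so they are not 10 separate observations. The labels do not say that each mouse library came from a separate animal, and p-values measure the spread between these libraries.

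**Figure D3:**
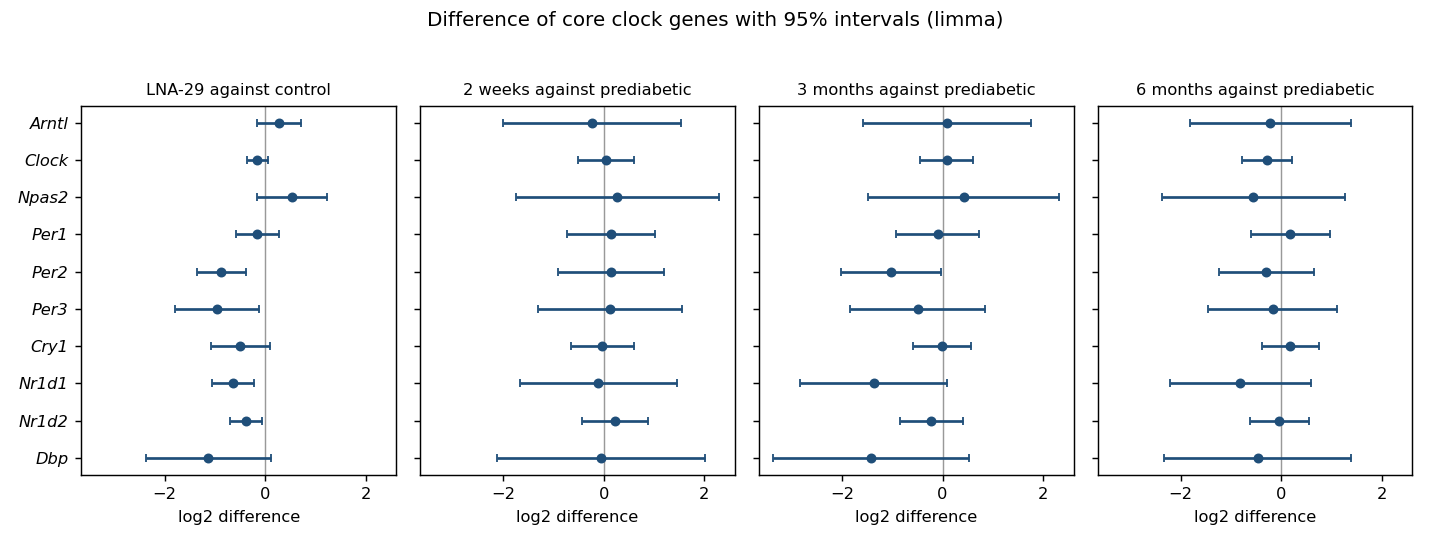
Difference of each clock gene (log2 of normalised count + 1, x axis) in LNA-29 against control mice and in rats at each diabetic stage against prediabetic rats; points are limma estimates and bars 95% intervals, not adjusted for the number of tests. Intervals are up to several log2 units wide in the rats, and those that miss 0 belong to Per2, Per3, Nr1d1 and Nr1d2 in the mice and Per2 at 3 months.

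Several clock genes varied more within groups than most genes did. By within-group standard deviation (log2 scale), 7 of the 10 in the rats and 3 of the 10 in the mice were above the 90th percentile of all genes tested, and the others lay between percentiles 74.8 and 82.4 in the rats and 40.8 and 89.4 in the mice. The within-group standard deviation of Dbp was 1.63 log2 units in the rats, rank 116 from the top of 13640 genes, and 1.13 in the mice, rank 119 of 14596. Over all genes tested the median was 0.27 in the rats and 0.20 in the mice. In the rats Npas2 (1.59), Arntl (1.39), Nr1d1 (1.23) and Per3 (1.12) followed, all above the 97th percentile of genes, then Per2 (0.83), Per1 (0.68), Nr1d2 (0.51), Cry1 (0.48) and Clock (0.43). In the mice the order was Dbp, Per3 (0.75), Npas2 (0.62), Cry1 (0.52, or 0.34 without LNA-29 mouse 2), Per2 (0.44), Arntl (0.38), Nr1d1 and Per1 (both 0.38), Nr1d2 (0.27) and Clock (0.17). Clock had the lowest standard deviation of the 10 in both tables, but in the rats its place below Cry1 rested on 3-month rat 5 (Cry1 101). As a ratio to genes of similar mean, Cry1 was the lower in the rats (1.76 against 2.09 for Clock). In the mice Clock was below the median of all genes, but above genes of similar mean (0.17 against 0.13).

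This spread was shared between several of the genes. Each value was set against its group's mean, so that differences between groups do not enter, and pairs of genes were correlated over the 20 rats and over the 11 mice, with permutation within groups and adjustment over the 90 relations computed. Arntl and Dbp moved oppositely in both: r was -0.95 in rats (Spearman rho -0.86; permutation p 1e-05 for each, the smallest that 100000 permutations give, adjusted p 0.000225) and -0.98 in mice (rho -0.90, permutation p 0.00015 and 0.00142, adjusted 0.00135 and 0.00587). Without the 2 libraries farthest from the median Arntl, r was -0.92 in rats and -0.96 in mice.

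Arntl and Nr1d1, its repressor, also moved oppositely, with r of -0.71 in rats (rho -0.65, permutation p 0.00352 and 0.00465, adjusted 0.0107 and 0.0139) and -0.77 in mice (rho -0.69, permutation p 0.00662 and 0.0199, adjusted 0.017 and 0.0427). Without the 2 farthest libraries r was -0.62 in rats and -0.64 in mice, where the permutation p was 0.0708 and the relation no longer passed. Arntl and Npas2 moved together, with r of 0.63 in rats (rho 0.76, permutation p 0.00356 and 0.00026, adjusted 0.0107 and 0.0018) and 0.90 in mice (rho 0.89, permutation p 6e-05 and 0.00012, adjusted 0.000675 and 0.0013); without the 2 farthest libraries r was 0.76 and 0.80. Dbp and Per3 moved together, with r of 0.95 in rats (rho 0.87, permutation p 1e-05 and 2e-05, adjusted 0.000225 and 0.00036) and 0.88 in mice (rho 0.87, permutation p 0.00202 and 0.0015, adjusted 0.00757 and 0.00587); r was 0.93 and 0.84 without 2 libraries.

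**Figure D4:**
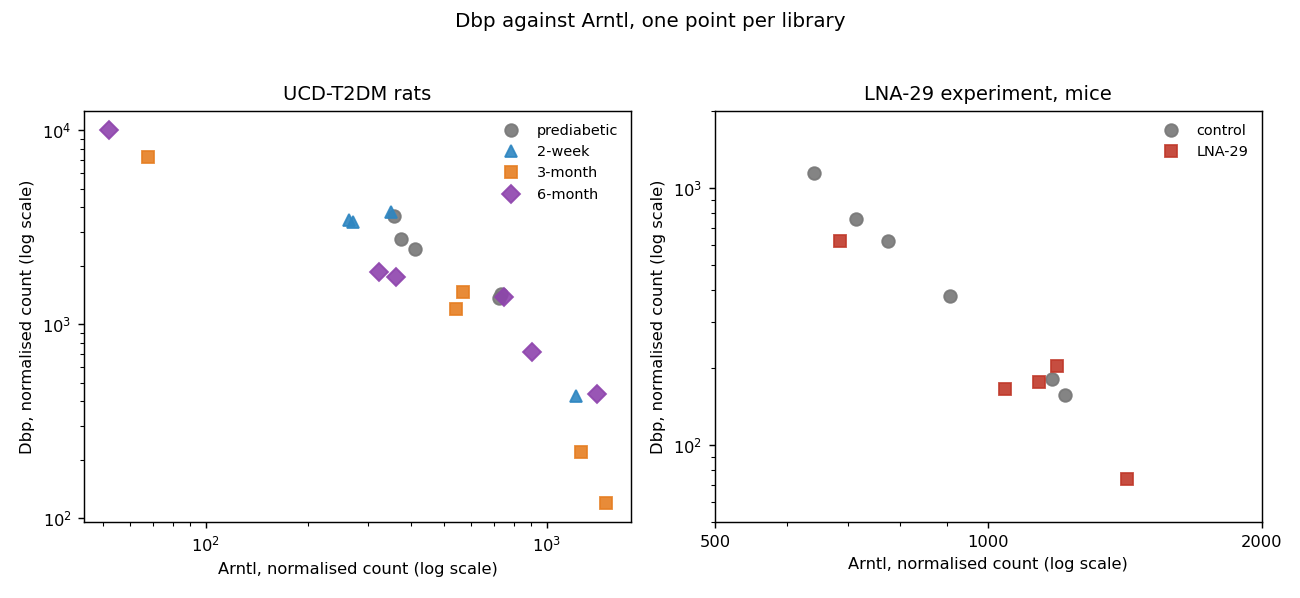
Dbp against Arntl, both as normalised counts on log axes, 1 point per library, rats on the left and mice on the right, with symbols for the groups. Points of all groups fall along 1 descending band in each panel, from 6-month rat 2 (Arntl 52.0, Dbp 10054) to 3-month rat 1 (1494 and 119) in the rats.

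Of the 45 pairs in each table, 23 passed an adjusted permutation p under 0.05 by Pearson's r in the rats (13 positive, 10 negative) and 19 in the mice (10 positive, 9 negative), and all 42 kept their sign without 2 libraries. In the rats 2 of these 23 then had an r closer to 0 than 0.5, Arntl with Clock (0.77, and 0.49 without 3-month rat 4 and 6-month rat 2) and Clock with Dbp (-0.67, and -0.35). The relations fell into a block of Dbp, Per3, Nr1d1 and Nr1d2, positive among themselves in both tables (r 0.70 to 0.95 in rats, 0.71 to 0.93 in mice; all 6 pairs passed in each). Against Arntl and Npas2 all 8 pairs of these genes had a negative r in each table, and 7 of the 8 passed. The exception in both was Npas2 with Nr1d1 (r -0.36 in rats and -0.55 in mice, adjusted permutation p 0.17 in each). The block was not fixed before the correlations were computed, so its counts of passing pairs are a description. Per2 belonged to that block in the rats, with r of 0.84 with Dbp and -0.90 with Arntl, both past the adjusted threshold. In the mice its r with Dbp was 0.32 and with Arntl -0.26, neither of which passed; the difference between species was not tested. Cry1 was positively related to Arntl in the mice (0.79, adjusted permutation p 0.0203), and in the rats its r was 0.13. Per1 passed with Per2 alone in the rats (0.59) and with Nr1d1 alone in the mice (-0.71).

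**Figure D5:**
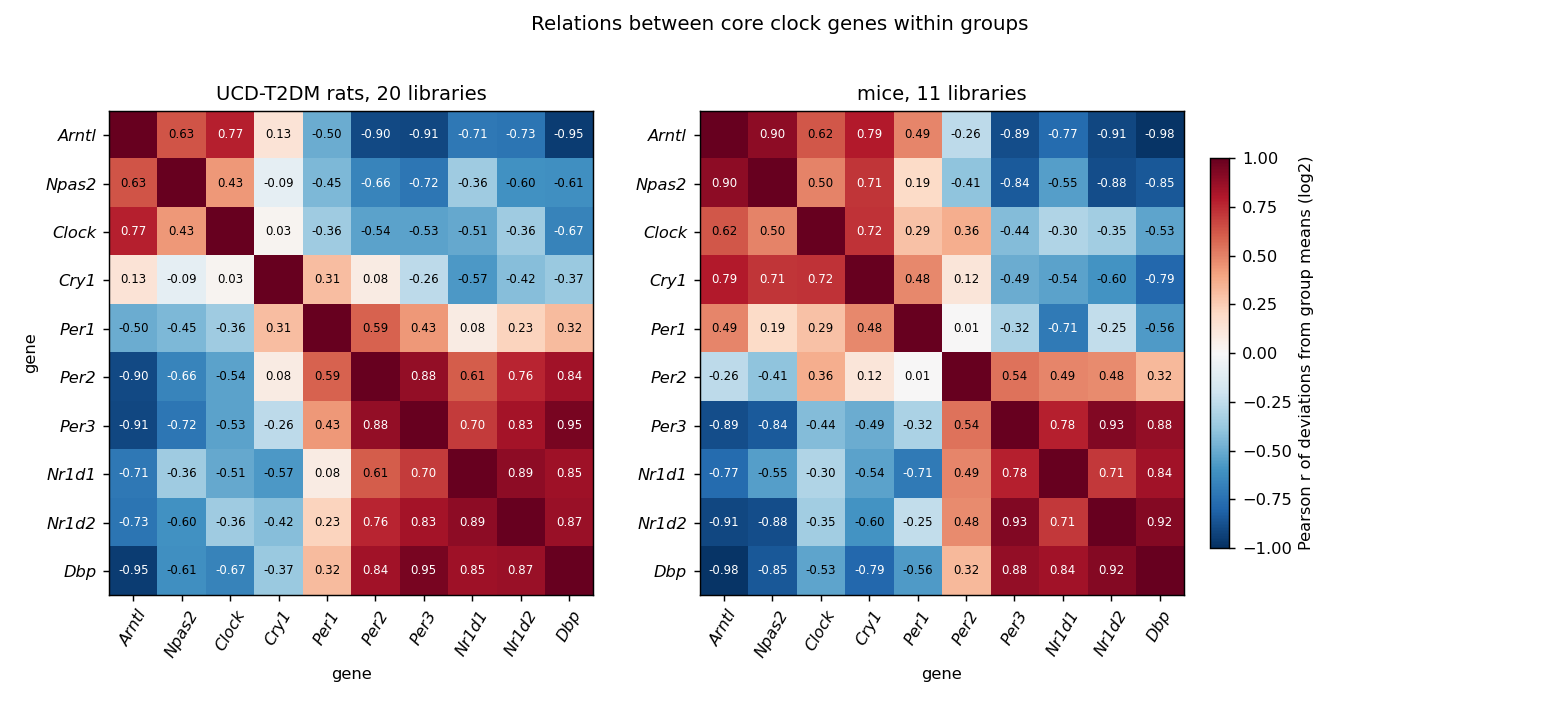
Pearson's r between pairs of clock genes, computed on log2 values after removal of group means, over 20 rat libraries (left) and 11 mouse libraries (right); red is positive, blue negative, the diagonal is 1 by definition. The upper left and lower right blocks (Arntl with Npas2; Per3, Nr1d1, Nr1d2 and Dbp) are positive and the blocks between them negative in both panels, while Per2 joins the lower block in the rats.

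The difference between log2 Dbp and log2 Arntl places each liver along this axis; since transcript lengths differ between genes, only its changes between libraries are read, not its sign. In the rats it ran from 0.91 to 3.33 in the prediabetic group (median 2.57), from -1.52 to 3.71 at 2 weeks (3.54), from -3.63 to 6.74 at 3 months (1.14) and from -1.69 to 7.57 at 6 months (1.58). The prediabetic rats thus spanned 2.43 log2 units, those at 2 weeks 5.23, those at 3 months 10.4 and those at 6 months 9.26. Each of the 3 wider spans rested in large part on 1 rat: it was 0.27 without 2-week rat 3, 5.01 without 3-month rat 4 and 4.21 without 6-month rat 2, while the prediabetic span was at least 1.98 without any 1 rat. In the mice it ran from -2.95 to 0.84 in controls (median -0.79) and from -4.25 to -0.14 with LNA-29 (-2.66); without LNA-29 mouse 4 the treated range ended at -2.55, and without mouse 2 it began at -2.69.

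The clock genes described above were left out of the following rankings in both species. The genes whose within-group pattern was most like that of Arntl in the rats, among 11407 genes with a mean of at least 50 normalised counts, were Clpx (r 0.97), Leo1 (0.93), Mdfic (0.93), Rnf8 (0.91) and Lnx2 (0.90). Those most like Dbp were Tef (0.96), a D-box binding relative of Dbp, Hsd17b2 (0.94), Fam120b (0.90), Ciart (0.89), a clock repressor, and Chdh (0.88). Ciart reached a mean of 50 only through the 6-month rats, where its mean was 203 (median 19.8, highest value 1103). Its means were 27.4, 31.7 and 42.6 in the prediabetic, 2-week and 3-month groups. The r of Ciart with Dbp was -0.41 in the mice. In the mice, among 11890 genes, those most like Arntl were Dazap1 (0.97), Cdkn1a (0.96), Psmd3 (0.94), Pxmp4 (0.94) and Denr (0.94), and those most like Dbp were Vat1 (0.96), Cyp2a5 (0.95), Pkp4 (0.92), Myo1d (0.92) and Card10 (0.92). These are the highest of many correlations over 20 and 11 libraries and are given as a description.

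A second list held 12 other loop genes, of which 11 were tested in each table. Hlf, the third D-box factor of the Dbp family, fell at 3 months, from 297 ± 86 (SD, n = 5) to 175 ± 34 normalised counts (n = 5), and at 6 months to 175 ± 50 (n = 6), a log2 difference of -0.72 ± 0.24 and -0.75 ± 0.23 (limma adjusted p 0.0496 and 0.0274). The 3-month call was lost in 8 of 10 fits without 1 rat (adjusted p up to 0.114) and the 6-month call in 5 of 11 (up to 0.0768). Both were also lost with the replicate number as a block (limma adjusted p 0.0807 and 0.0904) and with only the 2 groups in the fit (0.0619 and 0.0571), and the 3-month call without the filter on low values (0.0698). In all, 0 of the 11 loop genes were called at 2 weeks, 1 at 3 months and 2 at 6 months, where 0%, 16.5% and 21.1% of all genes were, so that these counts are not above the share over all genes. With LNA-29, 0 of 11 were called by limma; 4 had an unadjusted p under 0.05, all lower (19.2% of all genes, 9.69% lower). The 2 most abundant of the list were Rora at 4232 ± 258 in controls and 4482 ± 556 with LNA-29, and Bhlhe40 at 4071 ± 1181 and 3375 ± 1171.

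Among 12 genes that modify clock proteins, all tested, 1 rose at 3 months, and 1 rose and 1 fell at 6 months, which is below the 16.5% and 21.1% of all genes called. Csnk1e, casein kinase 1 epsilon, which phosphorylates PER proteins, rose from 312 ± 33 to 482 ± 121 normalised counts at 3 months and 480 ± 111 at 6 months (log2 0.60 ± 0.19 and 0.59 ± 0.18, limma adjusted p 0.0346 and 0.0237); these calls were lost in 7 of 10 and 3 of 11 fits without 1 rat, and the 6-month call also with the replicate block (0.0636). Csnk1d, the related delta kinase, fell at 6 months from 3600 ± 713 to 2433 ± 290 (log2 -0.55 ± 0.15, limma adjusted p 0.0162), and was lost in 1 of 11. In the mice 1 of 12 fell, where 2.43% of all genes were called. This was Hdac3, the histone deacetylase recruited by REV-ERB, which went from 1063 ± 38 to 877 ± 43 with LNA-29 (log2 -0.28 ± 0.05, limma adjusted p 0.023). Its 2 groups did not overlap (1015 to 1101 against 837 to 949), as was so for 3.95% of all genes. That call was lost in 5 of 11 fits without 1 mouse and with the replicate block (-0.27, limma adjusted p 0.1).

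Of 16 genes known for rhythmic expression in liver, 15 were tested in the rats and 16 in the mice. Cyp7a1, the rate-limiting enzyme of bile acid synthesis, fell with LNA-29 from 22293 ± 4025 to 11337 ± 3015 normalised counts (log2 -1.0 ± 0.17, limma adjusted p 0.0121). Every treated mouse (7042 to 15302) was below every control (18265 to 29793). Of all genes, 3.95% had groups that did not overlap. Cyp7a1 was the 1 called gene of the 16 in the mice, where 2.43% of all genes were called. Cdkn1a, the cell cycle inhibitor p21, fell from 5973 ± 990 in prediabetic rats to 1851 ± 1675 at 3 months and 1831 ± 1268 at 6 months (log2 -2.21 ± 0.56 and -2.01 ± 0.54, limma adjusted p 0.0122 and 0.0125). Por, the electron donor of microsomal cytochrome P450 enzymes, fell at 6 months (log2 -1.30 ± 0.46, limma adjusted p 0.0491), and that call was lost in 8 of 11 fits without 1 rat, without the filter (0.066) and with only the 2 groups in the fit (0.0551). In the rats 0 of 15 were called at 2 weeks, 1 at 3 months and 2 at 6 months, no more than the 16.5% and 21.1% of all genes.

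Genes that respond to hormones, food and temperature, which can also shift clock genes, were counted beside them; of all genes, 16.5% were called at 3 months (7.76% higher) and 21.1% at 6 months (11% higher). Of 10 tested glucocorticoid-responsive genes, 3 rose at 3 months and 3 at 6 months, namely Lcn2, Mt1 and Mt2A (log2 4.07 ± 1.20, 2.06 ± 0.41 and 2.66 ± 0.44 at 3 months; 5.07 ± 1.15, 2.05 ± 0.39 and 2.70 ± 0.42 at 6 months). These 3 also respond to inflammation or metals; Fkbp5, Tsc22d3 and the other listed genes were not called. Of 12 feeding and fasting genes, Igfbp1 rose and Srebf1 and Pnpla3 fell at 3 months (log2 2.32 ± 0.61, -1.33 ± 0.30 and -3.70 ± 0.88). At 6 months 1 rose (Igfbp1, 2.76 ± 0.59) and 6 fell, among them Pnpla3 (-3.62 ± 0.85) and Angptl4 (-1.57 ± 0.43). Of 7 temperature-responsive genes, the cold-inducible Rbm3 rose at both stages (0.76 ± 0.25 and 1.17 ± 0.24) and the heat shock gene Hsph1 fell at 6 months (-0.75 ± 0.18). The 3-month call of Rbm3 was lost without the filter (limma adjusted p 0.057), with the block (0.0541) and with only the 2 groups (0.0739). Of 7 immediate early genes, 3 rose at 6 months, Atf3, Fos and Egr1 (2.96 ± 0.77, 1.96 ± 0.63 and 1.66 ± 0.41); Fos was not called with only the 2 groups in the fit (0.0975). At 2 weeks none of these 4 lists had a called gene by limma, and 0 had an unadjusted p under 0.05.

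In the mice limma called none of these response genes either, where 2.43% of all genes were called, but some lay to one side. Of all genes, 19.2% had an unadjusted limma p under 0.05, and 9.69% of all genes were lower at that level. All 7 immediate early genes were lower with LNA-29 (median difference -0.95, beside 0.00 over all genes), with 3 at an unadjusted p under 0.05: Fos (-1.62 ± 0.62), Fosb (-1.26 ± 0.53) and Jun (-1.19 ± 0.47), at limma adjusted p of 0.177, 0.217 and 0.188. All 8 temperature-responsive genes were also lower (median -0.20), with 1 at an unadjusted p under 0.05. Of 10 glucocorticoid-responsive genes 1 was higher and 1 lower at that level, and of 12 feeding and fasting genes likewise 1 and 1. Whether the genes of a list varied together was not tested, so they are not counted as separate observations. The part of these response genes in the clock values of either species was not tested.

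Markers of liver cell types also moved with the rat groups, beside 7.76% of all genes called higher at 3 months and 11% at 6 months. Of 7 hepatocyte markers 2 fell at 3 months, and 1 rose and 1 fell at 6 months; Ttr, the plasma carrier transthyretin, fell at both (log2 -1.32 ± 0.18 and -1.22 ± 0.17). Of 6 Kupffer cell markers, 5 rose at 3 months and 5 at 6 months, and their summed level was 7931 to 12594 normalised counts in prediabetic rats, 8509 to 10397 at 2 weeks, 10679 to 29431 at 3 months and 12702 to 39399 at 6 months. At 3 and 6 months, 3 and 2 of 6 stellate cell markers rose, 1 and 1 of 5 endothelial, 1 and 2 of 5 bile duct, and 3 and 3 of 5 lymphocyte and neutrophil markers; 0 of 4 red blood cell markers were called. None of the listed Kupffer, stellate, endothelial, bile duct or blood cell markers was at 0 throughout a group; the adipocyte markers Plin1 and Lep and the pancreatic marker Prss1 were at 0 in all rats. In the mice 1 of 6 stellate markers (Col3a1) and 1 of 6 endothelial markers (Clec4g) rose with LNA-29, where 2.43% of all genes were called. Kupffer marker sums were 5151 to 7268 in controls and 4554 to 8655 with LNA-29. Their part in the clock gene values was not tested.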

How the data were processed

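Liver RNA was sequenced from polyA+ libraries, per the labels' protocols. The deposited values are a signal: normalised counts per gene made by the authors, not whole numbers, so raw counts and depth were not recovered. The submitters' processing notes name STAR, Salmon and DESeq2 and the builds mm10 and rn6, among others, without roles or versions. Groups follow the labels. The members and gene lists were chosen with earlier results of these data known.

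Each table was fitted alone with limma 3.58.1 (R 4.3.3, variance trend) on log2(value + 1), genes with a mean of at least 10, all groups in 1 fit, 2-sided, Benjamini-Hochberg adjustment over all genes tested, call under 0.05. A fold on this scale understates changes of low genes. Limma was tested on simulated data. Relations used deviations from group means, 100000 permutations within groups (numpy 2.4.6). Named outside the 10 members were, per list and comparison, up to 3 called genes in each direction, or values of up to 2 by mean, and the 5 most alike genes. Some genes this rule names are not reported here. Same-numbered libraries are different animals or have no stated pairing, so no block was used; deviations of same-numbered libraries had a median correlation of -0.01 in mice and 0.06 in rats. Alternatives were pseudocount 0.5, no filter, median-of-ratios rescaling, the replicate block, 2 groups only, exact permutation and leaving out each library. Small RNA tables were not used.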

Additional observations from a re-analysis of the deposited data

Results flagged for a closer look

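A single library stood far from the others of its group in 6 of the 66 sets of 4 to 6 libraries examined (10 clock genes and the Dbp minus Arntl difference in 6 groups); chance alone gives about 1 in 20. At 2 weeks, rat 3 stood below the other 3 for Dbp (log2 8.74, 426 normalised counts) and Nr1d1 (9.89, 947) and for the Dbp minus Arntl difference (-1.52), which are 3 readings of 1 animal. Clock was low in prediabetic rat 2 (10.16, 1145) and in 3-month rat 4 (10.13, 1119), the latter also the rat with the highest Dbp of its group. Nr1d2 was high in LNA-29 mouse 4 (11.40, 2701). Without 2-week rat 3, the difference at 2 weeks was 0.71 for Dbp and 0.43 for Nr1d1, neither called.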

How the results depend on the processing

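Rescaling by median of ratios shifted the median of all genes by 0 and left the number of genes called unchanged in every comparison. The deposited values were already normalised, so this rescaling could change little and says little about other scalings. A pseudocount of 0.5 changed no call and no direction of a clock gene, and neither did the rescaling. Of 640 alternatives for single clock genes, this rescaling among them, 591 kept direction and side of the threshold, 45 changed direction and 4 passed a threshold. Of those 4, Per2 and Nr1d1 with LNA-29 passed by exact permutation p (0.00433 and 0.0346), which was not adjusted for the number of genes. The other 2, by limma adjusted p, were Cry1 without LNA-29 mouse 2 and Per2 without 3-month rat 4. Each of these took the count of called clock genes from 0 to 1 in its comparison (range 0 to 1 over fits without 1 library). Fits without 1 library crossed 0 for these log2 differences. At 2 weeks: Clock -0.13 to 0.12, Cry1 -0.19 to 0.12, Dbp -0.34 to 0.71, Npas2 -0.41 to 0.86, Nr1d1 -0.30 to 0.43, Per1 -0.13 to 0.30, Per2 -0.15 to 0.42 and Per3 -0.21 to 0.59. At 3 months: Arntl -0.29 to 0.82, Clock -0.0912 to 0.28, Cry1 -0.22 to 0.30, Npas2 -0.26 to 0.89, Nr1d2 -0.40 to 0.11 and Per1 -0.37 to 0.16. At 6 months: Arntl -0.56 to 0.38, Nr1d2 -0.16 to 0.0576, Per1 -0.10 to 0.35 and Per3 -0.51 to 0.17. None of these was called in any such fit. The relation of Arntl and Nr1d1 in the mice had an r of -0.64 without 2 libraries.

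With the replicate number as a block, Nr1d1 and Dbp at 2 weeks moved to 0.0076 and 0.054 and the count of called clock genes stayed at 0 in all 7 comparisons; among all genes the block gave 70 calls in place of 355 with LNA-29, 195 in place of 320 for 3 months against 2 weeks, 574 in place of 1203 for 6 months against 2 weeks, and 1 in place of 2 for 6 months against 3 months. Without the filter 212 genes were called with LNA-29, and with only the 2 groups in the fit 169 for 3 months against 2 weeks. Without 1 library, calls over all genes ran from 120 to 540 (LNA-29), 0 to 3 (2 weeks), 1449 to 2393 (3 months against prediabetic), 41 to 557 (3 months against 2 weeks), 317 to 1717 (6 months against 2 weeks) and 0 to 4 (6 months against 3 months); the cause was not tested. Of the listed genes, calls without 1 library were also lost for Rbm3 (8 of 10) and Lcn2 (3 of 10) at 3 months and Fasn (7 of 11) and Fos (5 of 11) at 6 months; Fasn was also lost with the block (limma adjusted p 0.0617) and with only the 2 groups (0.0857). Ranges and within-group standard deviations without each library were added after seeing the data. Raw depth is unknown, so its limit on the lowest values, such as Npas2, cannot be given.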
